A study of Mus musculus with 2 samples.

Results

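The cells described here are liver cells in which MERFISH counted at least 2 transcripts, summed over Wnt4, Eps8l3, Dpp4 and Lamp3. MERFISH images tissue on a slide and identifies each RNA molecule, seen as a spot, by its barcode. They were taken from the kept cells, which are segmented cells with at least 10 counts over the 500 genes and a volume of at least 50 units, and they are called members below. Members made up 224 of 25499 kept cells: 35 of 9209 in section 1 and 189 of 16290 in section 2. The rule used the measured counts of these 4 genes, so those counts are a description of the choice and were not tested.

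The study imaged 2 sections of mouse liver, which the labels place in 1 group, tagged 2d, as replicates 1 and 2. Livers were snap frozen, embedded, cut into slices of 10 µm and fixed in PFA, per the labels' protocols. The series' design text speaks of mice with liver metastases treated with TA33 or TA33.Combo, but no label ties a section to a genotype, strain, age, treatment or time, so none was assigned, and the tag 2d was not interpreted. Whether the 2 sections are from 1 animal or several is not given in the labels, so differences between them may be technical, and p-values measure only the spread between these sections.

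Wnt4 encodes a secreted Wnt ligand, and Eps8l3 a relative of the actin regulator Eps8. Dpp4 encodes a membrane peptidase found on the bile canaliculi of hepatocytes, on some lymphocytes and on mesothelium. Lamp3 encodes a lysosomal membrane protein that marks mature dendritic cells. A cell type seen by MERFISH is usually recognised by several of its genes rising together, while blank barcodes, which belong to no gene, record how often spots are misread.

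Segmented cells numbered 26037 in section 1 and 85929 in section 2, with 428386 and 475382 gene counts. Kept cells had a median of 27 and 15 gene counts. Recounting the transcripts by cell gave the deposited counts in every segmented cell of both sections, and the sections shared 0 cell identifiers. Counts of different genes depend on their probes and are not compared as levels. The intervals below are exact binomial 95% intervals and cover counting error only.

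Members were 0.380% of kept cells in section 1 (interval 0.265 to 0.528) and 1.16% in section 2 (1.001 to 1.34). In section 1 the rule gene with the most counts was Wnt4 in 23 members, Dpp4 in 5, Eps8l3 in 4 and Lamp3 in 3. In section 2 it was Wnt4 in 83, Dpp4 in 48, Eps8l3 in 45 and Lamp3 in 13. Section 1 members were thus mostly cells with Wnt4, and section 2 members were spread over 3 of the genes. The highest count of Wnt4 in 1 cell was 3 in section 1 and 98 in section 2. For Eps8l3 the highest counts were 24 and 26, for Dpp4 3 and 19, and for Lamp3 9 and 14.

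The members of section 1 lay mostly at the threshold. There 27 of 35 members had a rule sum of exactly 2 and 8 had 3 or more, while 262 kept cells just outside had a sum of 1. In section 2, 38 of 189 members had a sum of 2 and 151 had 3 or more, while 292 kept cells had a sum of 1. The median rule sum was 2 in section 1 and 5 in section 2.

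Few members held several of the genes in section 1, and more did in section 2. In section 1, 30 of 35 members held counts of 1 rule gene alone. In section 2, 132 of 189 held 1 gene and 57 held several, and the most frequent pair was Dpp4 with Lamp3, in 36 cells. Each gene was then read in cells chosen by the other 3 genes. In section 1 each of the 4 genes had 0 counts in the 12 to 32 cells so chosen, which allows a share of up to 26.5% for Wnt4 and 10.9% for Lamp3 (exact interval).

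In section 2 the share of cells with each gene was larger among cells chosen by the others than among cells without them. The rule used these counts, so the shares are a description, with no test. Wnt4 was counted in 16 of 108 cells chosen by the other genes (14.8%, interval 8.71 to 22.9) and in 1.64% of 16073 cells with none of them. Eps8l3 was counted in 12.6% of 151 chosen cells (7.75 to 18.95) against 0.271%. Dpp4 was counted in 19.6% of 153 (13.6 to 26.8) against 0.416%, and Lamp3 in 18.3% of 180 (13.0 to 24.8) against 0.322%. Chosen cells could pass the minimum of 10 counts through the rule genes themselves. With both sets of cells held to at least 10 counts outside the rule genes, an alternative chosen after seeing the data, the shares were 23.1% of 52 cells against 1.23% for Wnt4, 15.6% of 77 against 0.120% for Eps8l3, 20.5% of 73 against 0.334% for Dpp4 and 18.8% of 85 against 0.315% for Lamp3. With the cells without these genes weighted to the depth of the chosen cells, the shares were 1.73%, 0.344%, 0.404% and 0.270%.

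**Figure D1:**
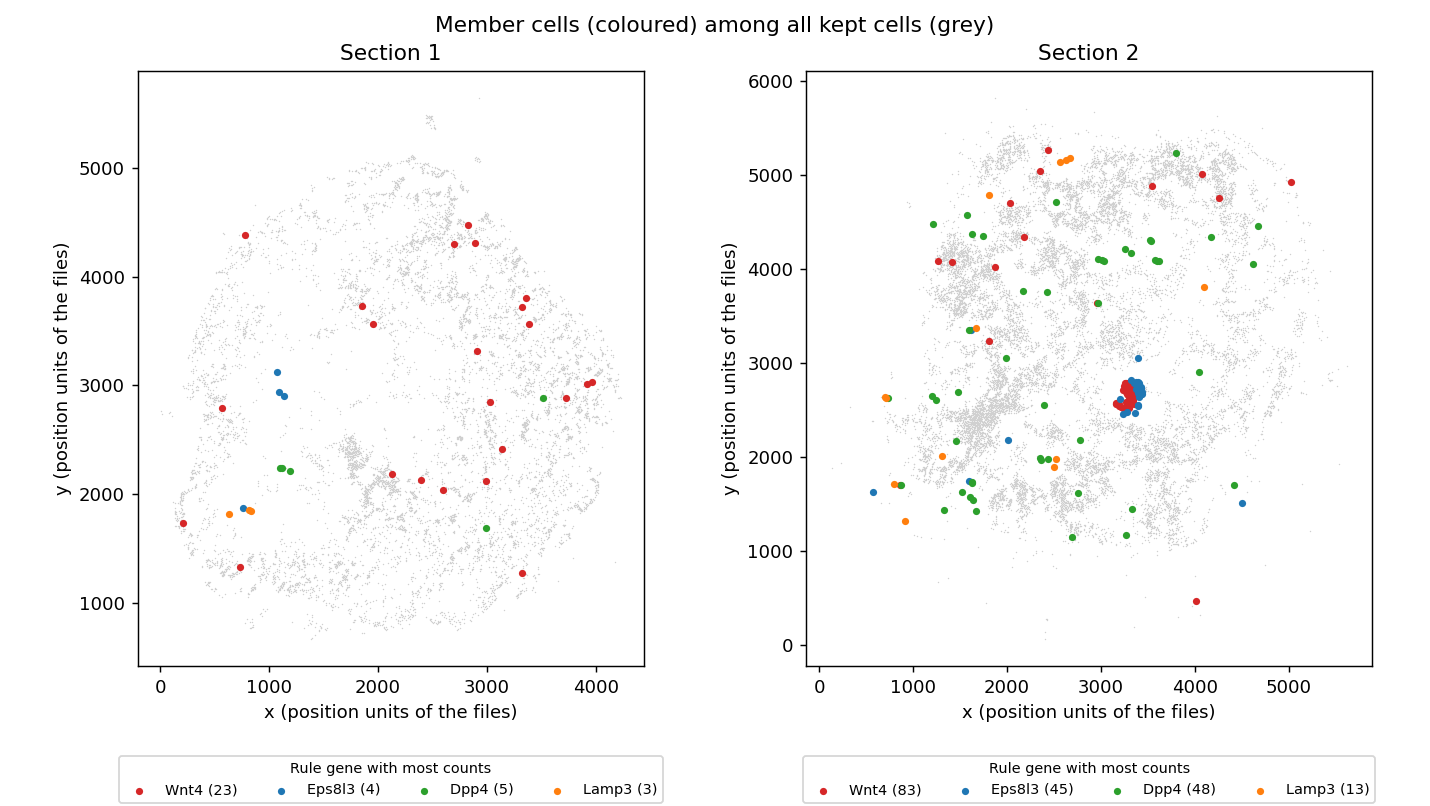
Positions of member cells, coloured by the rule gene with the most counts, among all kept cells (grey) in section 1 (left) and section 2 (right); axes are the files' position units from the lowest position. In section 2, 107 of 189 members form a patch, and no such patch is seen in section 1.

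Members of section 2 fell into a patch and a set of scattered cells. Of 189 members, 107 (56.6%) lay in 3 touching fields of view, the square camera frames that tile a section, and the other 82 were scattered over 65 fields with at most 3 in a field. The 3 fields were singled out after the data were seen, as those with at least 5 members. They held 121 kept cells, of which 71 of 76, 30 of 30 and 6 of 15 were members. The patch spanned 278 by 366 position units in a section of 6264 by 6055. In section 1 no field held more than 3 members, which came from 30 of 363 fields.

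Among kept neighbours within 50 units, members made up 78.9% around section 2 members and 0.205% around other kept cells. In section 1 the shares were 4.84% and 0.301%. The section 1 difference rested on 4 of 35 members that had another member within 50 units, and it turned to -0.45 percentage points with a minimum of 20 counts per cell and to -0.27 with repeated detections counted once. In section 2, 105 of 107 patch members and 26 of 82 scattered members had another member that close.

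The patch held most of the Wnt4 and Eps8l3 transcripts of section 2. Its 3 fields took 0.990% of all transcripts of the section, in cells or not, but 74.3% of 3030 Wnt4 transcripts (interval 72.7 to 75.8) and 78.6% of 742 Eps8l3 transcripts (75.4 to 81.5). They took 0.664% of 753 Dpp4 and 1.27% of 629 Lamp3 transcripts, so the patch was a place of the first 2 rule genes and not of the other 2. In patch members the counts were 731 for Wnt4, 275 for Eps8l3, 5 for Dpp4 and 8 for Lamp3. In scattered members they were 42, 69, 263 and 118.

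Genes outside the rule were concentrated in the same 3 fields. They were chosen here because they led the counts of patch members, after their values were seen. Vldlr, a lipoprotein receptor, had 73.9% of its 395 transcripts in these fields (69.3 to 78.2), and Itga2, a collagen-binding integrin, 60.6% of 523 (56.3 to 64.8). Cdk1, the kinase that drives entry into mitosis, had 40.9% of 1588 (38.4 to 43.3), and Mmut, a mitochondrial mutase, 17.1% of 1471 (15.2 to 19.2). Cd8b1, a subunit of the T cell coreceptor CD8, had 70.6% of only 68 (58.3 to 81.0). Hp, haptoglobin, a plasma protein made by hepatocytes, had 0.0373% of 112692.

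Within the patch the genes fell into 2 zones. Squares of 25 units with at least 5 transcripts of Wnt4 and Eps8l3 were sorted by which gene made up at least 90%. The 64 Wnt4 squares held 2145 Wnt4 and 3 Eps8l3 transcripts, the 19 Eps8l3 squares held 10 and 373, and 19 squares were mixed. Cdk1 made up 13.3 of 100 gene transcripts in the Wnt4 squares and 0.593 in the Eps8l3 squares. Itga2 made up 6.03 and 0.593, Vldlr 5.66 and 0.119, and the tight junction gene Cldn1 4.08 and 0. Mmut ran the other way, with 0.107 in the Wnt4 squares and 16.01 in the Eps8l3 squares, as did Klf1, an erythroid transcription factor, with 0 and 7.47. Across the 107 patch members the log counts of Wnt4 correlated at 0.80 with Cdk1, and those of Eps8l3 at 0.72 with Mmut (Pearson, a description over cells that share 3 fields and were chosen on their Wnt4 and Eps8l3 counts).

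**Figure D2:**
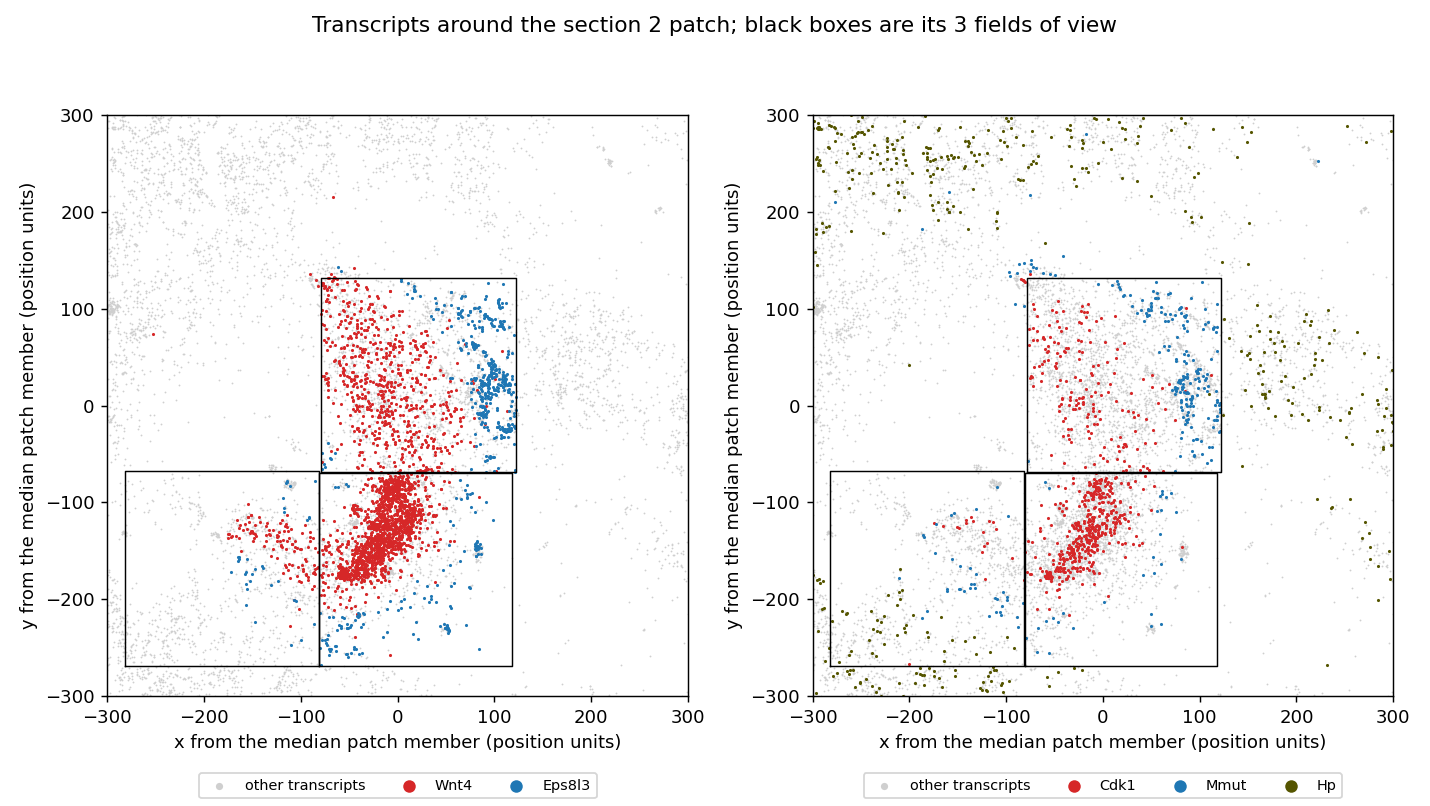
Single transcripts around the section 2 patch, with Wnt4 and Eps8l3 coloured on the left, Cdk1, Mmut and Hp on the right, and all others in grey; axes are position units from the median patch member and black boxes are the 3 fields of view. Wnt4 and Cdk1 share an area, Eps8l3 and Mmut share another, and several edges of these areas run along the boxes.

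Some edges of the patch followed the borders of fields of view. Transcripts of Wnt4, Eps8l3, Cdk1, Itga2, Vldlr and Mmut were counted in strips of 20 units on either side of each border. At the high-x border of the field with 71 members, 177 lay inside and 0 outside, while transcripts of all other genes and blanks numbered 73 inside and 46 outside. At its low-x border 131 lay inside and 13 outside, against 87 and 35 of the others. At its high-y border 78 lay inside and 15 outside, against 74 and 32. Between the field with 71 members and the field with 30, the 6 genes were present on both sides, with 118 and 271. The 12 fields around the patch held 298 kept cells and 0 members, and Wnt4 made up 0.0967% of their gene transcripts, against 22.4% and 47.0% in the 2 fields with most members. The part of the imaging or of the tissue in these edges was not tested.

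Hepatocyte transcripts were scarce in most of the patch. The 26 hepatocyte-list genes made up 3.55% and 2.24% of gene transcripts in the 2 fields with most members, 19.7% in the third patch field, with 6 members, 50.3% in the fields around and 50.3% in all fields outside the patch. Hp had 0 counts in the 107 patch members, but made up 3.98% of gene transcripts in the third field. Of the segmented cells, 61.8% and 43.5% in the first 2 fields and 14.6% in the third held at least 1 rule transcript, against 0.927% outside the patch.

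In patch members Cdk1 was counted 224 times in 57 of 107 cells, or 17.3% of their counts outside the rule genes (15.3 to 19.5), against 0.109% in other kept cells. The other 3 cell cycle genes on the panel, Mki67, Ccnd1 and Cdkn1a, had 0 counts there. In other kept cells of the section these 3 genes had 695, 307 and 167 counts beside 322 of Cdk1. Itga2 made up 8.80% against 0.0240%, Mmut 8.02% against 0.111%, and Vldlr 5.40% against 0.0108%. Cd8b1 had 21 counts in 14 cells, while Cd3d, Cd3e and Cd3g, which encode the CD3 chains of T cells, had 0. The bile duct keratins Krt7 and Krt19 and Spp1 had 0. Single genes of a list were thus high in the patch without their companions.

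In section 1 these genes were not raised in members. Cdk1 had 3 counts in the 35 members, or 0.0727% of counts outside the rule genes, against 0.101% in other kept cells. Itga2 had 2 counts and Mmut 7, at 0.0485% against 0.0685% and 0.170% against 0.189%. Vldlr had 0.

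Scattered members of section 2 and members of section 1, each with a rule sum of 3 or more, shared another profile. Klf1 was counted 427 times in 47 of the 82 scattered members, or 38.5% of their counts outside the rule genes (35.6 to 41.4), against 0.298% in other kept cells. In section 1, Klf1 was counted 75 times in 4 of the 8 members with a rule sum of 3 or more, or 24.1%, against 1.89% in the 27 members with a sum of 2 and 0.767% in other kept cells. Hp had 0 counts in those 8 cells and 2 in the 54 scattered members with a sum of 3 or more. In the 28 scattered members with a sum of 2, Klf1 made up 30.5% of counts outside the rule genes. Hp made up 9.23% there, with 36 counts, against 16.4% in other kept cells of section 2. In the 27 section 1 members with a sum of 2, Hp made up 8.34% of counts, close to the 8.01% of other kept cells. The 8 and 27 cells of section 1, and the 54 and 28 scattered members, were split at the rule's own sum, after the data were seen.

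The 8 section 1 cells differed in which rule gene they held. In 4 of them the rule counts were Eps8l3 alone, with 24, 10, 7 and 7 counts, in 2 they were Lamp3 alone, with 9 and 6, in 1 Dpp4, with 3, and in 1 Wnt4, with 3. The cell with 24 counts of Eps8l3 had 19 of Klf1, the cell with 10 had 15, and the Dpp4 cell had 37. These 8 cells lay apart from other kept cells, with a median of 1.5 kept cells within 50 units, against 8 for the members with a sum of 2 and 11 for cells with a sum of 0. The 54 scattered members of section 2 with a sum of 3 or more had a median of 0.5, against 18 for cells with a sum of 0 and 16 for patch members with a sum of 3 or more.

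**Figure D3:**
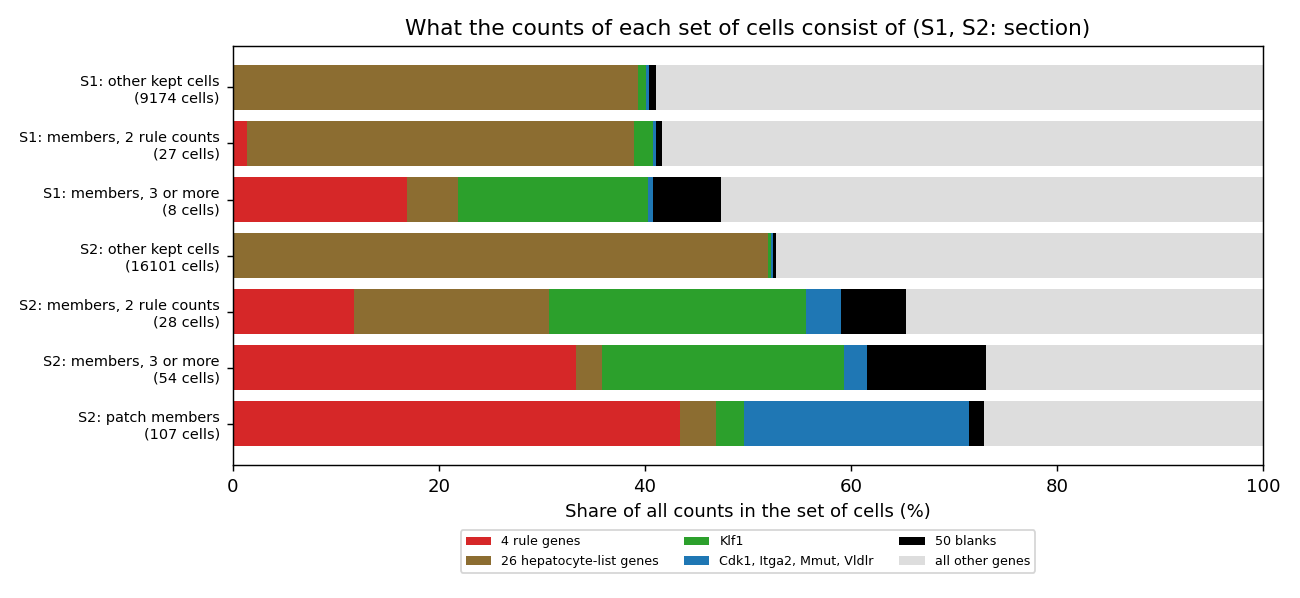
Share of all counts, blanks included, taken by the 4 rule genes, the 26 hepatocyte-list genes, Klf1, 4 genes of the patch, the 50 blanks and all other genes, per section and set of cells (S1, section 1). Section 1 members with 2 rule counts resemble other kept cells in their hepatocyte share (37.5% and 39.3%), while members with 3 or more hold 4.91% in section 1 and, outside the patch, 2.45% in section 2.

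Klf1 in scattered members came with few counts of 4 other erythroid genes. Car2, Cd24a, Epor and Kit together had 2 counts in the 82 cells, or 18.0 per 10000 counts outside the rule genes, against 75.5 in other kept cells. Of the 47 scattered members with Klf1, 0 held any of the 4 genes, which allows a share of up to 6.38%. Among other kept cells with Klf1, 227 of 585 did (38.8%), at a median of 17 counts against 11. These medians, like the rates per 10000, include Klf1 itself, which had 427 counts in the 47 cells and 882 in the 585. The 47 cells thus had few counts left for other genes, so their 0 cannot show that the 4 genes were absent. In section 1, 3 of 11 members with Klf1 held any of them, against 810 of 1820 other kept cells (44.5%).

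Blank barcodes were more frequent in members. In section 1 blanks took 1.16% of member counts (interval 0.865 to 1.53) and 0.648% of counts in other kept cells (0.623 to 0.674). In section 2 they took 5.20% (4.55 to 5.92) and 0.251% (0.233 to 0.270). The rise lay in scattered members, with 10.2% (8.79 to 11.6), more than in the patch, with 1.45% (1.004 to 2.02). In section 1 it lay in the 8 members with a sum of 3 or more, with 6.63%, while members with a sum of 2 had 0.591%.

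A single barcode, Blank-29, made up most of the blank counts of scattered members and over all section 1 members. It had 166 of the 181 blank counts of scattered members (91.7%), in 43 of 82 cells, against 31.9% of the blank counts of other kept cells. In section 1 it had 29 of 50 blank counts in members and 214 of 2517 in other kept cells. In patch members Blank-29 had 6 of 34 blank counts (17.6%), while Blank-27 had 15 and Blank-5 had 8. Blank-32 and Blank-27 were the next most raised blanks, with 7 and 18 counts in section 2 members and 1 and 0 in section 1 members. None of the 18 blanks with enough counts passed edgeR's quasi-likelihood test when the blanks were added to the fit, and Blank-29 had an adjusted p of 0.986 with section as a block.

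At least 2 counts of Blank-29 were seen in 28 of 189 members and in 5 of 16101 other kept cells of section 2, and in 6 of 35 members and 6 of 9174 others of section 1. At least 5 counts of Klf1 were seen in 33 section 2 members (17.5%) and in 23 other kept cells (0.143%), and in section 1 in 5 (14.3%) and 44 (0.480%). In the 23 section 2 cells outside the rule, as in the 33 members, hepatocyte-list genes made up little of the counts, at 2.04% and 2.003%. In section 1 they made up 16.3% in the 44 cells outside the rule and 4.48% in the 5 members. Among cells with at least 2 counts of Blank-29, these genes made up 39.1% in the 5 other kept cells of section 2 and 3.33% in the 28 members. In section 1 the shares were 29.7% in the 6 other kept cells and 5.74% in the 6 members.

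In section 1 some blanks had more counts than the rule genes. Over kept cells, 4 of 50 blanks had more counts than Wnt4 there, 7 more than Dpp4, 12 more than Eps8l3 and 27 more than Lamp3. In section 2, 0 blanks had more counts than Wnt4, and 1, Blank-29, had more than each of the other 3 genes.

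Image signals separated the same cells. The deposited tables give a signal for each cell in 7 image channels, which was divided by cell volume and set against the median other kept cell. The 8 section 1 members with a sum of 3 or more had medians of 6.67-fold for Cellbound1, 4.99-fold for Ttr, 4.41-fold for GFP and 3.47-fold for PolyT. The 54 scattered members of section 2 with such a sum had 6.59-fold, 6.90-fold, 3.81-fold and 2.63-fold. The 27 section 1 members with a sum of 2 had 1.10-fold, 0.901-fold, 1.004-fold and 1.07-fold. The 28 scattered members of section 2 with a sum of 2 had 2.20-fold, 2.31-fold, 1.98-fold and 1.38-fold. Patch members had 0.819-fold, 0.705-fold, 1.001-fold and 1.37-fold. High Cellbound1 and Ttr signals were also seen outside the rule in section 2. The 5 other kept cells with at least 2 counts of Blank-29 had 8.31-fold and 7.86-fold, and the 23 with at least 5 counts of Klf1 had 2.80-fold and 2.84-fold. The 6 other kept cells of section 1 with that many counts of Blank-29 had 1.18-fold and 1.39-fold. Cellbound3 differed between sections, with 2.51-fold in the section 1 cells and 0.273-fold in the scattered ones. The part of this image signal in the counts was not tested.

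**Figure D4:**
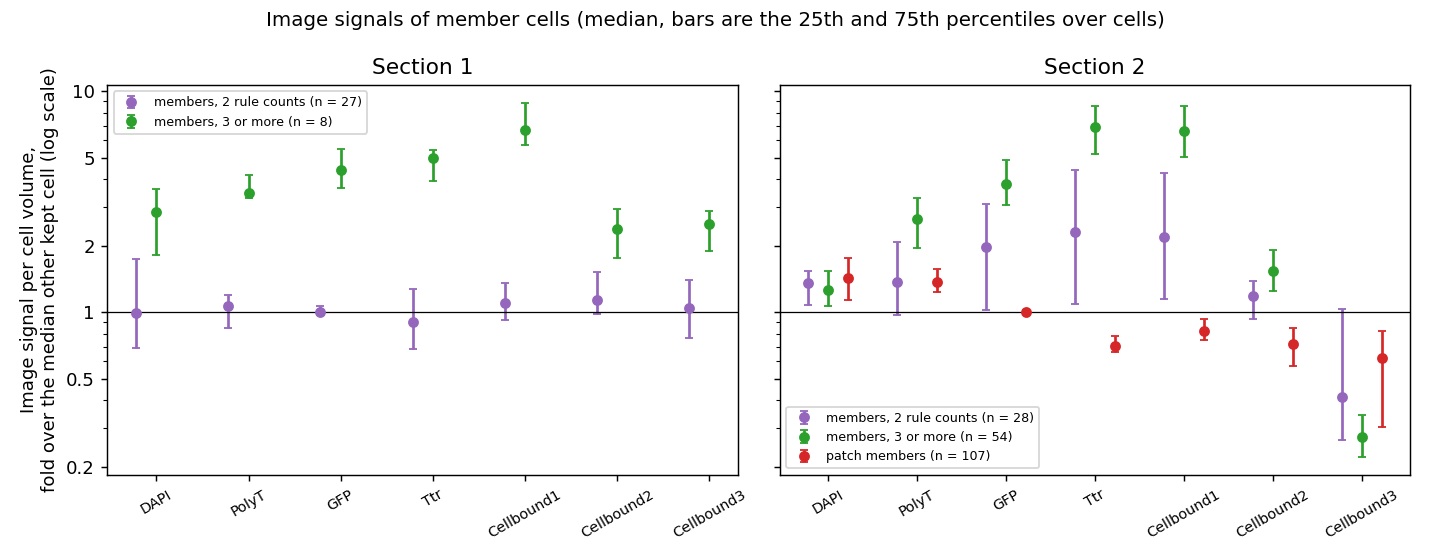
Image signal per cell volume in 7 channels as a fold over the median other kept cell of the same section, on a log scale, for sets of member cells; points are medians and bars the 25th and 75th percentiles over cells. Members with 3 or more rule counts outside the patch stand well above 1 for PolyT, GFP, Ttr and Cellbound1 in both sections. In these channels section 1 members with 2 rule counts stay near 1. Scattered section 2 members with 2 rule counts have medians from 1.38 to 2.31.

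Depth went with membership in section 1. Members had a median of 71 counts outside the rule genes and a volume of 1933, against 27 and 1126 for other kept cells. The share of members rose from 0.126% of cells with 10 to 19 counts (interval 0.0343 to 0.322) to 1.70% of cells with at least 100 (0.907 to 2.88). Cells with a rule sum of 1, just outside the rule, had a median of 54 counts. In section 2 the medians were 9 and 15 counts outside the rule genes, and the volumes 1170 and 1263. The minimum of 10 counts included the rule genes, so members of section 2 had as few as 1 count outside them and other kept cells no fewer than 9, and these medians are a description.

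Transcripts of section 2 members lay in other focal planes than those of other cells. Planes run from 0 to 6, and in other kept cells of section 2 the share of transcripts outside the rule genes fell from 27.6% in plane 0 to 3.28% in plane 6. In patch members it was 14.9% and 7.95%, and in scattered members 11.6% and 19.2%. The mean plane was 1.86 in other kept cells, 2.66 in patch members and 3.45 in scattered members. Rule gene transcripts had means of 2.37 in the patch and 2.85 in scattered members. In section 1 the mean plane was 1.64 in members and 1.49 in other kept cells, and rule gene transcripts in members had a mean of 1.26.

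**Figure D5:**
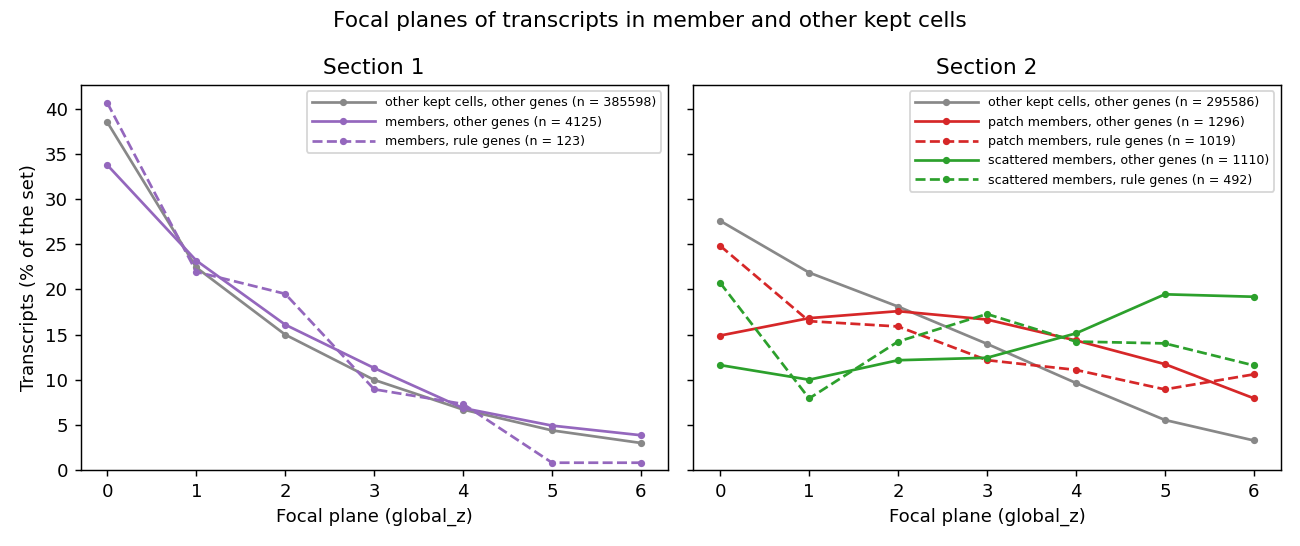
Percent of transcripts in each focal plane (0 to 6), for genes outside the rule (solid) and rule genes (dashed), in member and other kept cells of section 1 (left) and section 2 (right). The section 1 curves fall alike, while those of section 2 members are flatter than the 27.6% to 3.28% fall of other kept cells or, for other genes of scattered members, rise to 19.2%.

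Over all transcripts of section 2, in cells or not, plane 6 was where the rule genes stood out most, with 9.93% of their transcripts against 3.32% of those of all genes. Wnt4 had 13.3% there and ranked at 11 of 336 genes and blanks by mean plane, and Dpp4 had 7.57% and ranked at 29. Lamp3 and Eps8l3 had 2.38% and 4.85% and ranked at 256 and 300. The 8 other genes with the highest share in plane 6 were B4galt7 (28.9%), Lrp6 (23.7%), Dynlt3 (23.4%), Klf1 (18.0%), Ccrl2 (16.3%), Stap1 (13.1%), Vldlr (12.9%) and Mmut (12.1%). Of the blanks, Blank-9 and Blank-32 were highest, at 16.9% and 15.5%. Klf1, Mmut and Vldlr, which were among the leading genes of section 2 members, were thus among these 8. Cdk1, Itga2, Lrp1 and Cldn1, which also led the counts of those members, were not.

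In section 1 the rule genes were most concentrated in plane 4, by little, with 6.06% against 5.33% of all genes. The 8 other genes with the highest share there were Hoxa5, Ugcg, Thy1, B4galt7, Col1a1, Rab17, Rgs1 and Mal, at 11.4% to 13.2%, and the highest blanks were Blank-32, Blank-5 and Blank-26, at 10.96% to 11.4%. Of these genes B4galt7 was on the list of both sections.

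Rule transcripts of members often lay close to each other. Of 123 in section 1, 51.2% had another transcript of the same gene within 1 unit in the same cell. In section 2, 42.8% of 1511 did. For transcripts of other genes the shares were 19.6% and 24.4% in members, and 12.2% and 6.53% in other kept cells. Since the rule asks for several counts, cells with exactly 2 counts of a gene were also compared. Both lay within 1 unit in 4 of 22 such cases for rule genes in section 1 members, or 18.2%, and in 7.63% of 29781 cases for other genes in other kept cells. In section 2 the shares were 10 of 36 (27.8%) in scattered members, 0 of 13 in patch members and 5.95% of 24692 in other kept cells. Other genes in scattered members had 22.7% of 66, so close pairs there were not limited to the rule genes. With repeats counted once, 29 and 155 members were left.

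Much of the rule gene signal lay outside kept cells. In section 2, 51.7% of Wnt4, 27.2% of Eps8l3, 24.7% of Dpp4 and 54.5% of Lamp3 transcripts were in no segmented cell, against 34.4% over the 500 genes. In section 1 the shares were 49.9%, 34.4%, 31.6% and 26.1%, against 40.1%.

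Across both sections no gene passed the test. Counts were summed over members and over other kept cells of each section, and edgeR's quasi-likelihood test with section as a block found 0 of 421 genes higher and 0 lower (0% called in either direction, Benjamini-Hochberg adjusted p under 0.05). The lowest adjusted p was 0.983, and 0 genes had an unadjusted p under 0.05. DESeq2 called 0, with 20 at an unadjusted p under 0.05. Over both sections the median fitted log2 difference over all genes was -1.07, or -0.55 without TMM scaling. Of the 421 genes, 216 had 0 counts in section 2 members and 106 in section 1 members.

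For Klf1 and Hp the sections differed in the size of the difference, and Klf1 was higher in members of both. Klf1 was 3.56% of counts outside the rule genes in section 1 members and 0.767% in other kept cells, and 20.4% and 0.298% in section 2 (edgeR log2 difference 3.54, SE 3.50, adjusted p = 0.983). Hp was 7.71% and 8.01% in section 1, and 1.58% and 16.4% in section 2 (log2 difference -2.32, SE 4.00, adjusted p = 0.983). Members of section 1 as a whole thus kept the Hp share of other cells, and those of section 2 did not.

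With at least 3 rule counts in place of 2, edgeR's quasi-likelihood test with section as a block called 5 genes lower and 0 higher, so this threshold decided the call. They were Hp, Igfbp2, F2, Igfbp4 and Fgb, all secreted by hepatocytes, with adjusted p-values from 3.6e-07 to 0.025. Their fitted log2 differences ran from -9.69 to -8.25, beside a median of -7.18 over all 421 genes, many of which had 0 counts in these cells. These cells had medians of 36 and 8 counts outside the rule genes, and some passed the count minimum through the rule genes. Hp had 0 of 311 counts in the 8 section 1 members and 2 of 1904 in the 151 section 2 members, against 8.02% and 16.4% in other kept cells. Igfbp2 had 0 and 3 counts, F2 0 and 1, Igfbp4 0 and 2, and Fgb 1 and 0. With all cells also held to at least 10 counts outside the rule genes, an alternative chosen after seeing the data, the test called the same 5 genes lower and 0 higher of 420, with adjusted p-values from 3.5e-12 to 0.0049 and a median log2 difference over all genes of -7.41.

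None of 16 marker lists had a member that passed the main test. The lists hold 1 to 26 genes of the panel outside the rule. The 26 hepatocyte genes, all tested, had a median log2 difference of -0.34 in section 1 and -3.97 in section 2, beside -0.35 and -3.41 over all genes tested. With genes at 0 counts set to a floor of 3 counts over the members, the medians were -0.24 and -2.08, beside 0.34 and 1.19. They made up 3590 and 848 of 10000 counts outside the rule genes in members, and 3953 and 5202 in other kept cells.

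Defining markers of the cell types that the rule genes are known for had few counts. For dendritic cells, Cd40 and Flt3 had 0 counts in members of both sections, Cd83 and H2-Ab1 1 each in section 1 and 0 in section 2, and Itgax 4 and 3. Lamp3 had 17 and 126 counts in the same cells. For bile duct cells, Krt7, Prom1 and Spp1 had 0 in both sections, Epcam 0 and 2, and Krt19, which also marks mesothelium, 0 and 2. Of the 7 tested genes of the T and NK cell list, 5 had 0 counts in section 1 members and 3 in section 2 members. Over all 421 tested genes these numbers were 106 and 216, as given above. The 11 genes of the list made up 7.27 of 10000 counts outside the rule genes in section 1 members and 158 in section 2 members. In other kept cells they made up 17.8 and 12.4. Of that list, Cd8b1 had 21 counts in section 2 members, Cd28 8 and Cd4 7, against 9, 14 and 97 in the far more numerous other kept cells. In section 1 the 10 endothelial genes made up 245 of 10000 counts outside the rule genes in members and 103 in other kept cells. In section 2 the endothelial genes made up 62.3 and 55.0. None of these genes passed the test, and at a median of 9 counts a member in section 2 a weakly detected marker can be missed.

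Among 9 other genes of the Wnt pathway, 0 of 9 tested passed in either direction. Axin1, a scaffold of the complex that degrades beta-catenin, had 34 counts in patch members and 1 in scattered members. Lrp6, a Wnt coreceptor, had 6 and 29, and Axin2, a target gene of the pathway, 3 and 12. Lef1 and Tcf7, the transcription factors of the pathway on the panel, had 0 in all section 2 members, and 34 and 60 counts in other kept cells. Those members held 2406 counts outside the rule genes and other kept cells 295586, too few in members to read these zeros. The 9 genes together made up 407 of 10000 such counts in section 2 members and 34.4 in other kept cells, and 80.0 and 74.1 in section 1. Their median log2 difference was 1.80 in section 2 and -0.09 in section 1, beside -3.41 and -0.35 over all genes tested.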

How the data were processed

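MERFISH counts of 500 genes and 50 blanks per segmented cell, cell tables and transcript positions were used as the authors deposited them, for both sections. Values are raw counts, and image signals and volumes in the deposited cell tables are raw signals; per the file headers no unit of length is given. The decoding and segmentation software is not given in the sources used here. No doublet caller was run. Counts of members and of other kept cells were summed per section, giving 4 sums with 1 residual degree of freedom, and tested with edgeR 4.0.16 (R 4.3.3; the quasi-likelihood test with TMM scaling, a block for section and genes of 50 or more counts; Benjamini-Hochberg adjusted p under 0.05); DESeq2 1.42.0 was an alternative. Section is the replicate number, and member and other cells of a section share it, so the sums are paired by section. Rule genes and blanks were left out of sums and library sizes. Log2 differences in single sections use a prior count of 2. Cells are not replicates, so other values have no test. The edgeR step was tested on simulated data, with a set spread not taken from these sections. There it called 7 of 81 genes changed 2-fold, 19 of 52 changed 4-fold and 37 of 64 changed 8-fold, with 2 false calls. A result of 0 genes called can therefore miss changes of these sizes. Positions, planes and intervals were computed with Python 3.11.15, scipy 1.17.1 and pandas 2.3.3.

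Genes were to be named as the 4 rule genes, the largest passing changes, passing list members, defining markers of 3 cell types, and the 8 genes, the blanks highest in the rule genes' plane and the 3 most raised blanks; no gene passed, so other genes named led the counts of a set of cells and were chosen after their values were seen. The members and the gene lists were chosen with earlier results of these data known. Alternatives changed the count, volume and rule thresholds, the scaling, the filter, the block, the tool and the distance of repeats. Probe sequences were not used here. Some genes are not reported here.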

Additional observations from a re-analysis of the deposited data

Results flagged for a closer look

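Transcripts of the 4 rule genes also lay outside the cells compared. In section 2, 2298 were in no segmented cell and 1053 in cells below the count minimum, and in section 1 these numbers were 335 and 72. They were singled out because they are signal in data that the comparison of kept cells does not use. Those of section 2 in no cell had a mean plane of 2.70, against 1.54 for other genes in no cell.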

How the results depend on the processing

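The count of genes higher in members was 0 under every alternative run, and that of genes lower was 0 under every alternative but 2: it was 5 with at least 3 rule counts, and 5 when at least 10 counts outside the rule genes were asked as well (chosen after seeing the data). Without the replicate block 0 genes were called, with 14 at an unadjusted p under 0.05. Blank share, members minus others, was 0.515 percentage points in section 1 in the main setting. There it was 0.586 with at least 20 counts per cell and 5.99 with at least 3 rule counts. In section 2 it was 4.95 in the main setting and 2.02 with at least 20 counts per cell. It was 9.90 there without the fields holding 5 or more members and 1.20 with members of those fields alone. Both of these field settings were chosen after seeing the data. Members were 0.507% of kept cells of section 2 without those fields. The neighbour difference of section 1 turned to -0.45 with at least 20 counts and to -0.27 with repeats counted once. Wnt4 in section 2 cells chosen by the other rule genes exceeded that in cells without them by 26.1 percentage points with at least 20 counts. Repeated rule transcripts were 24.4% and 19.3% at 0.5 units and 62.6% and 65.3% at 2 units. Leaving out a section left single genes with no test. At 9 to 15 counts per cell in section 2, depth limits which markers can be seen.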
